A study of Mus musculus with 6 samples.

Results

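Ribosomal RNA fragments were examined in small RNA libraries from extracellular vesicles (EVs), membrane-bound particles that cells release. The members were all 1107 rows of type rRNA in the count table, which has 61949 rows in all. Their names give 3 kinds: 720 rows are named 5S, 40 are named SSU-rRNA_Hsa (small subunit) and 347 are named LSU-rRNA_Hsa (large subunit). A row is a stretch of the mouse genome (mm10) that resembles one of these RNAs, and most of the rows are scattered repeats and not working genes. Rows with equal counts in all 6 libraries were taken as one, which left 780 rows: 489 5S, 37 SSU and 254 LSU. No row of type rRNA is named 5.8S.

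The astrocyte EV libraries (n = 3) came from primary cortical astrocytes of CD1 mice, grown from the dorsal cortex of P4 pups in a medium with fetal bovine serum. The NSC EV libraries (n = 3) came from primary neural stem cells (NSCs), taken from the neonatal subventricular zone of CD1 mice, and the sources used here do not describe their culture. The labels name no treatment and no engineered allele. The labels do not say that the libraries of a group came from separate cultures, and the p-values below therefore cover the spread among libraries, which may be technical. Each astrocyte EV library held 72359982 to 111851274 table counts and each NSC EV library 44620985 to 50898531. In such bulk samples, fewer EVs of a kind and less RNA per EV cannot be told apart.

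The ribosome holds a small subunit built on 18S rRNA and a large subunit built on 28S, 5.8S and 5S rRNA. RNA polymerase I transcribes 18S, 5.8S and 28S as a single long precursor in the nucleolus, whereas RNA polymerase III transcribes 5S from a separate tandem array of genes. Mitochondria make their own 12S and 16S rRNA. A small RNA library captures short pieces of these RNAs, and a short piece can match many rows, so the rows below can share reads.

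Astrocyte EV libraries held more 5S counts and fewer SSU and LSU counts than NSC EV libraries, as shares of each table. The 5S rows took 17.2%, 13.7% and 12.4% of the counts in the 3 astrocyte EV libraries and 3.30%, 2.26% and 5.60% in the 3 NSC EV libraries. The SSU rows took 0.648%, 0.614% and 0.719% against 1.13%, 1.72% and 1.13%, and the LSU rows took 1.78%, 1.68% and 2.46% against 4.26%, 8.61% and 5.69%. For each kind the groups did not overlap. The mean 5S share was 14.4% ± 2.49 (SD, n = 3) in astrocyte EVs and 3.72% ± 1.71 in NSC EVs, with p = 0.1 by a two-sided exact permutation test, also after adjustment over the 3 kinds. The mean SSU share was 0.660% ± 0.0538 against 1.33% ± 0.343, and the mean LSU share was 1.97% ± 0.424 against 6.19% ± 2.22 (exact permutation test, p = 0.1 for each). A p of 0.1 is the smallest that 3 libraries against 3 allow, so no share could pass a threshold of 0.05.

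The share of all rRNA rows together depended on how repeated rows were counted. With every row counted, rRNA took 17.1% ± 2.24 of astrocyte EV counts and 11.2% ± 2.21 of NSC EV counts, and the groups did not overlap (exact permutation test, p = 0.1). With rows of equal counts taken once, the shares were 8.51% ± 0.873 and 9.46% ± 2.24, the groups overlapped and the direction turned (exact permutation test, p = 0.6). The directions of the kinds were the same in both counts: with equal rows once, 5S took 5.35% ± 1.04 against 1.38% ± 0.563, SSU 0.793% ± 0.0560 against 1.43% ± 0.323 and LSU 2.36% ± 0.469 against 6.65% ± 2.20. These are shares of a table that also holds tRNA rows. With tRNA rows left out of the total, rRNA took 33.2% against 16.3%.

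**Figure D1:**
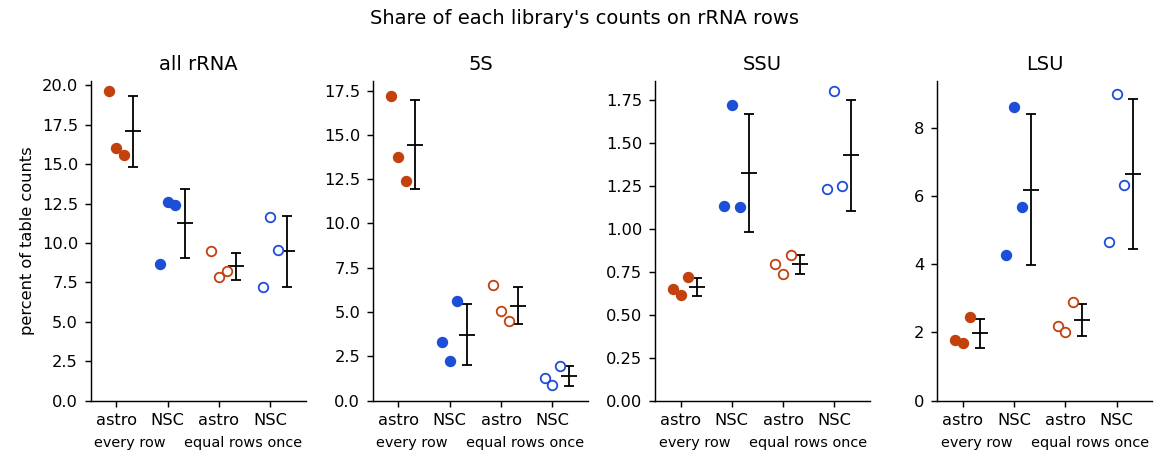
Percent of table counts on all rRNA, 5S, SSU and LSU rows in each library, with filled points for every row and open points for rows of equal counts taken once. Orange points are astrocyte EV and blue points NSC EV libraries, and bars show the mean ± SD (n = 3). The 5S shares of astrocyte EVs lie above those of NSC EVs and the SSU and LSU shares lie below them in both counts, whereas the all-rRNA shares overlap once equal rows are merged.

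Within the rRNA counts alone, which no other RNA class enters, the make-up differed in the same way. The 5S rows made up 87.7%, 85.7% and 79.6% of rRNA counts in astrocyte EV libraries and 37.9%, 17.9% and 45.1% in NSC EV libraries. LSU rows made up 11.8% ± 3.56 against 54.4% ± 12.2, and SSU rows 3.92% ± 0.666 against 11.9% ± 2.49. With equal rows taken once, 5S made up 62.7% ± 7.30 against 15.4% ± 7.09 and LSU 27.95% ± 6.39 against 69.3% ± 6.83. None of these groups overlapped (exact permutation test, p = 0.1 for each). The kinds sum to the whole of rRNA counts, so a larger 5S part lowers the others. Their differences are therefore not separate results.

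Few rows carried most of each kind. Of the distinct rows, 8 of 489 5S rows held 50% of 5S counts and 23 held 90%. A single SSU row held over 50% of SSU counts, whereas 18 of 254 LSU rows were needed for 50% and 65 for 90%. At the other end, 427 of the 1107 rows had under 10 counts over the 6 libraries. Rows were 29 to 1849 bases long, with a median of 89.

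The 5S counts lay on a tandem array. It spans 84.96 kb of the minus strand of chromosome 8, at chr8:123538784-123623745, with 51 rows at a median spacing of 1698 bases. These rows held 93.0% ± 0.149 of 5S counts in astrocyte EVs and 88.7% ± 2.56 in NSC EVs, and 13.4% ± 2.33 against 3.33% ± 1.63 of the whole table (exact permutation test, p = 0.1 for each). The 51 rows had 16 different sets of counts. Over the 6 libraries, 30 rows had sums within 30 counts of the highest, which was 934230, and the lowest sum was 277111. With near-equal counts on so many rows of one sequence, the summed 5S share is not a share of sequenced molecules.

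**Figure D2:**
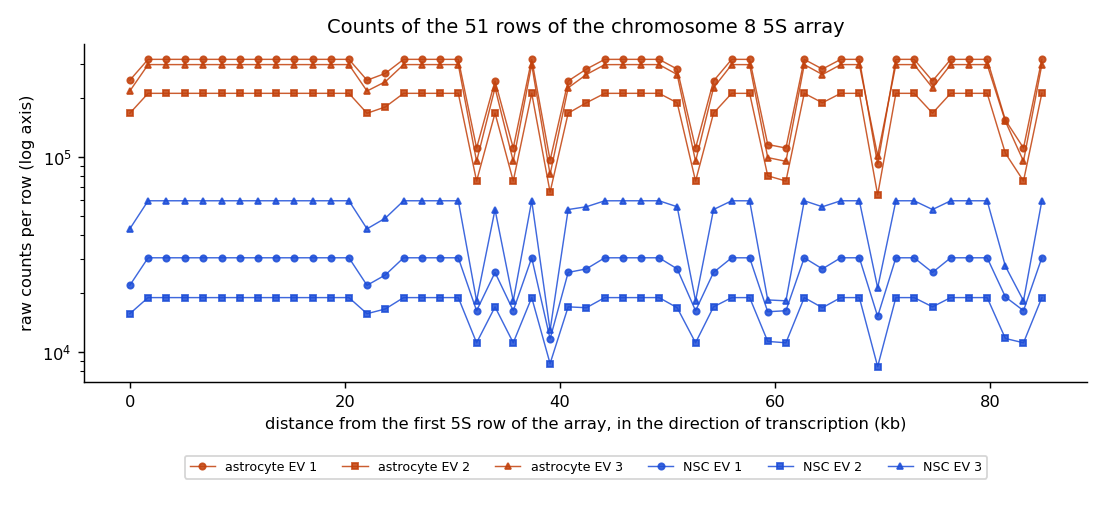
Raw counts per row (log axis) for the 51 rows of the chromosome 8 5S array against distance from the first row in the direction of transcription, with one line per library. All 6 lines rise and dip at the same rows, and the 3 astrocyte EV lines (orange) lie above the 3 NSC EV lines (blue) at every row.

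The most abundant 5S row, 5S_copy456 (gene n-R5s104, chr8:123545576-123545696, minus strand), had 316125, 211765 and 297155 counts in astrocyte EV libraries and 30465, 19053 and 59667 in NSC EV libraries. Every astrocyte EV library lay above every NSC EV library. The log2 fold change of astrocyte EVs over NSC EVs was 2.77 (SE 0.73, adjusted p = 0.0496 by the quasi-likelihood test of edgeR with Benjamini-Hochberg adjustment over 41308 tested rows). This call was close to the threshold. It was lost without astrocyte EV replicate 1 or 2 (edgeR adjusted p = 0.114 and 0.117), without NSC EV replicate 1, 2 or 3 (edgeR adjusted p = 0.119, 0.103 and 0.0795) with rRNA rows left out of the normalization (edgeR adjusted p = 0.0517), with a replicate block (0.126) and in a test against a 2-fold threshold (0.162). The fold change itself stayed between 2.08 and 3.36 on the log2 scale as each library was left out.

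Across the array, the log2 fold change ran from 2.32 to 2.84 over the 16 distinct rows, and 12 of them passed the test. The other 4 did not, among them 5S_copy482 with an adjusted p of 0.0574 (edgeR). All 16 had a fold change above 0 in the main analysis and in every alternative setting, but 0 were called without astrocyte EV replicate 1 or 2 or any single NSC EV replicate, with the replicate block or against the 2-fold threshold (all 16 had an unadjusted p under 0.05 in each, edgeR).

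The level of an array row relative to the top row followed its sequence. GENCODE holds sequences for all 51 array rows, and 32 of them are identical to 5S_copy456, with 100% of its counts after rounding. The row 5S_copy488, with 1 substitution against the top row, had 83.8% of its counts in astrocyte EVs and 82.6% in NSC EVs, and 5S_copy482, also with 1, had 77.4% and 88.4%. For 5S_copy482 the share was 77.5%, 79.2% and 76.1% in the astrocyte EV libraries and 84.2%, 89.7% and 90.2% in the NSC EV libraries, with no overlap. The row 5S_copy454, with 3 substitutions, had 49.8% and 53.6%, and 5S_copy479, with 8, had 29.5% and 30.6%. The array row 5S_copy489, whose annotated gene is 109 bases long in place of 119 and otherwise identical, had 76.6% and 73.9%.

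GENCODE sequences matched 119 of the 720 5S rows, and substitutions were counted, position by position, in the 84 of the same length as the top row. Among these 84, more changes went with fewer counts. The 12 rows with 4 to 6 substitutions had a median of 34.1% of the top row in astrocyte EVs and 38.4% in NSC EVs. The 7 rows with 7 to 10 had 3.71% and 9.09%, and the 15 rows with 11 to 20 had 0.373% and 1.55%. Rows are not independent here, since they share reads, and no test was made of this relation. No sequence was assigned to the other 601 5S rows, because no annotated transcript met both of their ends closely.

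**Figure D3:**
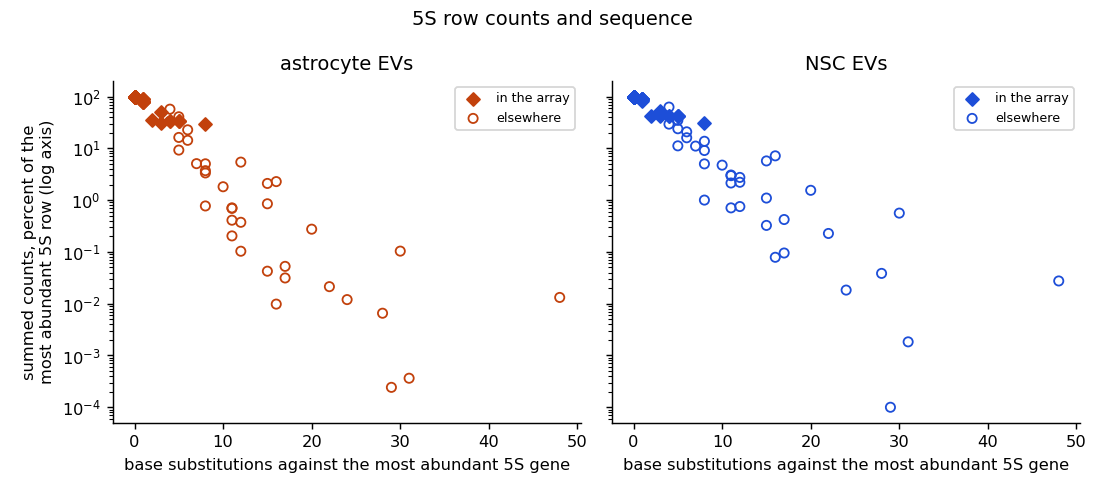
Summed counts of each 5S row as a percent of the most abundant 5S row (log axis) against the number of base substitutions, for astrocyte EVs (left) and NSC EVs (right). Diamonds are array rows and circles are rows elsewhere, and a row with 0 counts in NSC EVs is drawn at the bottom of the axis. The level falls from 100% at 0 substitutions to medians of 0.373% and 1.55% at 11 to 20.

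Outside the array, the 4 rows with the largest fold changes among 5S rows called higher, with a mean of at least 100 counts, were near-complete 5S copies elsewhere in the genome. The row 5S_copy396 (n-R5s93, chr8:5069258-5069377, minus strand, 12 substitutions) had 16869, 14533 and 13323 counts in astrocyte EVs and 1011, 1040 and 947 in NSC EVs, at a log2 fold change of 3.83 (SE 0.56, edgeR adjusted p = 0.0156). All 3 astrocyte EV libraries lay above all 3 NSC EV libraries. The row 5S_copy720 (n-R5s71, chr11:74319792-74319912, plus strand, 6 substitutions) had 75082, 53916 and 59132 against 5365, 5850 and 6276, a log2 fold change of 3.36 (SE 0.60, edgeR adjusted p = 0.0203). The row 5S_copy208 (n-R5s185, chr4:53860652-53860771, in an exon of Tmem38b on the same strand) had a log2 fold change of 3.02 (SE 0.69, edgeR adjusted p = 0.0349). The row 5S_copy570 (n-R5s2, chrX:6106891-6107010) had one of 2.98 (SE 0.69, edgeR adjusted p = 0.0367).

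The proportion of these rows to the array also varied. Relative to the top 5S row of the same EV type, 5S_copy396 stood at 5.42% in astrocyte EVs and 2.75% in NSC EVs, and 5S_copy720 at 22.8% and 16.02%. By library, 5S_copy396 stood at 5.34%, 6.86% and 4.48% in astrocyte EVs and at 3.32%, 5.46% and 1.59% in NSC EVs, with overlap. The row 5S_copy720 stood at 23.8%, 25.5% and 19.9% in astrocyte EVs and at 17.6%, 30.7% and 10.5% in NSC EVs, so the groups overlapped there too. None of the 4 calls outside the array held without astrocyte EV replicate 1 (edgeR adjusted p from 0.0541 to 0.0907), astrocyte EV replicate 2 (0.0695 to 0.0975) or NSC EV replicate 3 (0.0555 to 0.0703). Those of 5S_copy208 and 5S_copy570 were also lost without NSC EV replicate 1 (edgeR adjusted p = 0.0856 and 0.0896) and replicate 2 (0.0713 and 0.0752). With a replicate block, 5S_copy208, 5S_copy570 and 5S_copy720 were lost (0.0937, 0.0977 and 0.0613) and 5S_copy396 was not (0.0381).

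Counted over all distinct 5S rows, 222 of 489 passed the low-count filter, and 41 of these were higher and 4 lower in astrocyte EVs at an adjusted p under 0.05. The background over the whole table was 9.78% called, with 5.54% called higher and 4.24% called lower of 41308 tested rows, beside 18.5% and 1.80% of the tested 5S rows. The median log2 fold change of tested 5S rows was 0.88, beside -0.04 over all tested rows. Without TMM, 23 tested 5S rows were higher and 11 lower and their median was 0.17, beside a median of -0.54 over all rows. In that setting 738 rows were higher and 3217 lower of all 41308 tested. The 12 array rows called share reads, as do many of the 29 called elsewhere, so the count is not one of independent RNAs. The 4 lower rows were 5S_copy781, 5S_copy444, 5S_copy866 and 5S_copy874, all with low counts: 5S_copy866 had 0, 14 and 14 counts in astrocyte EVs and 119, 104 and 35 in NSC EVs. These 4 rows were picked out after their values were seen, as were the remaining rows named for their small number.

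Among SSU rows, the size of the difference in the leading row depended on the scaling. This row, SSU-rRNA_Hsa_copy44, lies at chr17:39846353-39848201 on the plus strand, is 1849 bases long, and starts at the same base as the Rfam entry for eukaryotic SSU rRNA, whose counts are equal in all 6 libraries. It is called the 18S row here. It had 338744, 262247 and 472602 counts in astrocyte EVs and 286030, 361545 and 335683 in NSC EVs. The groups overlapped, with a log2 fold change of -0.11 (SE 0.56, edgeR adjusted p = 0.922). Without TMM the log2 fold change was -0.81 (edgeR adjusted p = 0.201). As a share of the table the 18S row took 0.395% ± 0.0304 against 0.693% ± 0.112, without overlap (exact permutation test, p = 0.1). The 2 scales differ because TMM, the scaling used by edgeR, moves the median of all rows from -0.54 without it to -0.04 with it, on the log2 scale.

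Few counts of the gene row Rn45s lay outside the 18S row. Rn45s, the gene of the 45S precursor, begins before the 18S row and ends after it in mm10. Its row spans chr17:39842997-39848829 and the 18S row ends at 39848201, so little sequence after the 18S row is covered. The counts outside the 18S row therefore do not measure fragments of the large-subunit RNAs of the precursor. Rn45s exceeded the 18S row by 401, 332 and 3133 counts in astrocyte EVs and 1457, 952 and 1838 in NSC EVs. That excess was 0.118% to 0.659% of the Rn45s counts. The antisense row of Rn45s had 89, 109 and 458 counts against 49, 48 and 79.

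The level of 5S relative to 18S separated the EV types. Per count of the 18S row, the top 5S row had 0.933, 0.808 and 0.629 counts in astrocyte EVs and 0.107, 0.0527 and 0.178 in NSC EVs. On the scale of counts per base, the top 5S row was at 12.1 ± 2.34 times the 18S row in astrocyte EVs and 1.72 ± 0.959 times in NSC EVs (exact permutation test, p = 0.1). In NSC EV replicate 2 it was below the 18S row, at 0.805 times. This ratio uses a single row of each kind and does not depend on the normalization. The sources do not say how reads with several matches were shared among rows. If they were split, the ratio would change with the number of 5S copies, so its size is uncertain. The comparison between EV types uses the same rows in both.

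Short windows inside the 18S row are listed in the table as separate rows of type piRNA. Their counts are given relative to the count of the 18S row, as a ratio and not as parts of it, since in other rRNA rows a window can exceed the row that holds it. The name is that of the annotation and their source as piRNA was not tested. There are 10 windows of 25 to 31 bases, and 3 whose percent of the 18S count did not overlap between EV types are shown, from the plus strand of chromosome 17 (GENCODE vM21, complement of the transcript CT010467.1). With them stands the window with the highest percent.
piR_002435, chr17:39846755-39846779: tgaccacgggtgacggggaatcagg
piR_038328, chr17:39847002-39847031: agcgtatattaaagttgctgcagttaaaaa
piR_000219, chr17:39847612-39847638: acgggaaacctcacccggcccggacac
piR_000639, chr17:39847215-39847245: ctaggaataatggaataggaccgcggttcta

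The window of highest percent, bases 863 to 893 of the row (piR_000639), had 5.93%, 6.76% and 5.34% of the 18S count in astrocyte EVs and 5.71%, 4.83% and 6.42% in NSC EVs, with overlap. The window at bases 1260 to 1286 (piR_000219) had 4.69% ± 0.481 in astrocyte EVs and 3.09% ± 1.34 in NSC EVs. The windows at bases 403 to 427 (piR_002435) and 650 to 679 (piR_038328) had lower percents in astrocyte EVs, at 1.41% ± 0.261 against 2.61% ± 1.18 and 0.0356% ± 0.00950 against 0.114% ± 0.0371. Each of these 3 had an exact permutation p of 0.1, or 0.286 when adjusted over the 10 windows. The 3 were picked for their lack of overlap, which alone fixes the exact p at 0.1, so it adds no support. For comparison, 207 of 443 tested distinct rRNA rows had no overlap in TMM-scaled level, a different measure. In the edgeR fit, piR_038328 was the only one of the 10 past the threshold (94, 86 and 218 against 376, 504 and 240 counts, log2 fold change -1.88, SE 0.37, adjusted p = 0.0245).

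**Figure D4:**
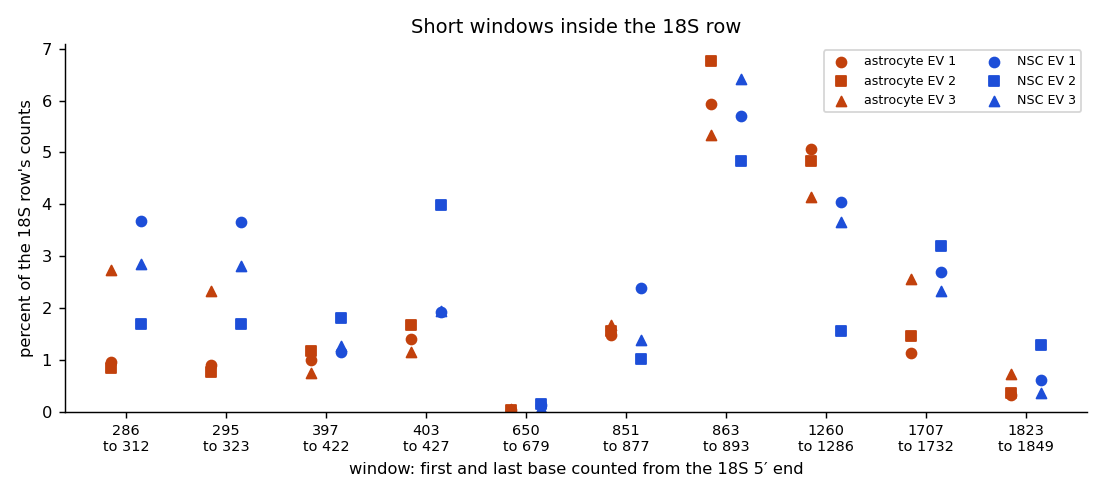
Count of each of 10 short windows as a percent of the count of the 18S row, a ratio of separately counted rows, placed by their first and last base from the 18S 5′ end, with one point per library. Astrocyte EV points (orange) lie above NSC EV points (blue) at bases 1260 to 1286 and below them at 403 to 427 and 650 to 679, and the groups overlap at the other windows.

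Of the 37 distinct SSU rows, 31 were tested, and 1 was higher and 7 were lower in astrocyte EVs, which is 3.23% and 22.6% of those tested, beside the backgrounds of 5.54% and 4.24%. The higher row was SSU-rRNA_Hsa_copy2 (chr1:156044253-156044319), a 67-base fragment with 3004, 2085 and 4162 counts against 608, 530 and 572 (log2 fold change 2.19, SE 0.42, edgeR adjusted p = 0.0235). The median over tested SSU rows was -1.34 on the log2 scale. Without TMM, 13 SSU rows were lower and 0 higher (24 had an unadjusted p under 0.05), and DESeq2 called 13 lower and 1 higher. The whole table had 3217 lower and 738 higher of 41308 rows without TMM, and 3413 lower and 3943 higher of 47488 by DESeq2. After the 18S row, the most abundant SSU rows were SSU-rRNA_Hsa_copy16, SSU-rRNA_Hsa_copy1 and SSU-rRNA_Hsa_copy21, all between genes. Their log2 fold changes were -0.32, -0.70 and -0.18, and none passed the test (edgeR adjusted p = 0.701, 0.440 and 0.827).

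LSU rows were mostly lower in astrocyte EVs, without a single dominant locus. Of 254 distinct rows, 190 were tested, and 27 were lower and 1 higher, which is 14.2% and 0.526% of those tested, beside the backgrounds of 4.24% and 5.54%. The median over tested LSU rows was -0.97 on the log2 scale, and 163 of 190 were below 0. Without TMM, 67 LSU rows were lower and 1 was higher, with a median of -1.59. The whole table then had 3217 lower and 738 higher of 41308 rows, with a median of -0.54. The 27 lower rows ran from -5.53 to -1.48 on the log2 scale.

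**Figure D5:**
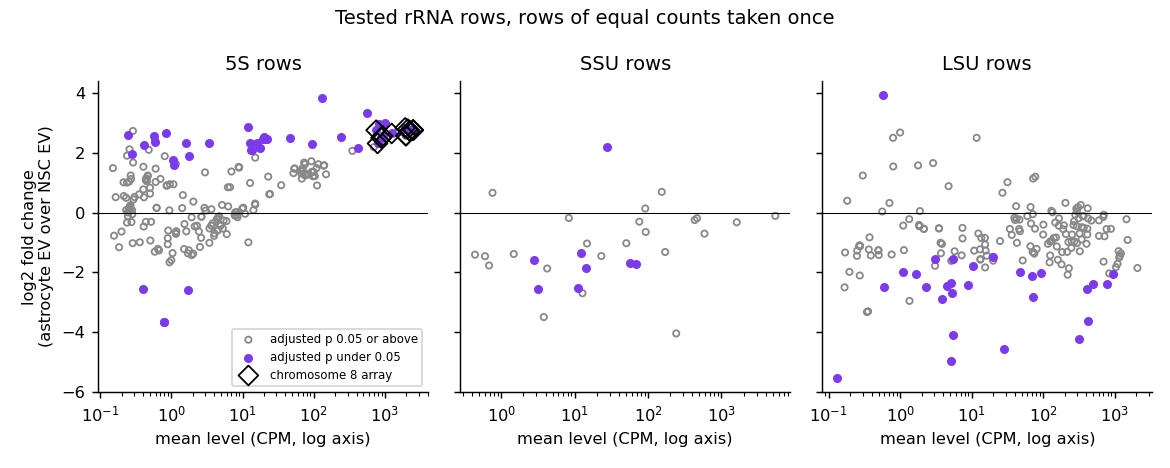
Log2 fold change of astrocyte EVs over NSC EVs against mean level (CPM, counts scaled to library size by TMM, log axis) for tested 5S, SSU and LSU rows, with rows of equal counts taken once. Filled points passed the edgeR test (adjusted p under 0.05) and black diamonds mark the 16 distinct rows of the chromosome 8 array. The 5S array lies at 2.32 to 2.84, the most abundant SSU row lies at -0.11, and most LSU rows lie below 0.

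Several LSU rows with large differences lay at scattered loci. LSU-rRNA_Hsa_copy37 (chr2:13878759-13879092, in an intron of Hacd1 on the other strand) had 3061, 2947 and 10494 counts in astrocyte EVs and 17869, 64185 and 57811 in NSC EVs, at a log2 fold change of -3.61 (SE 0.58, edgeR adjusted p = 0.0167). The groups did not overlap, and NSC EV replicate 1 was the lowest of its group. LSU-rRNA_Hsa_copy163 was at -4.55 (SE 0.70) and LSU-rRNA_Hsa_copy173 at -4.10 (SE 0.71), with edgeR adjusted p-values of 0.0162 and 0.0192. For LSU-rRNA_Hsa_copy70 the difference was carried by NSC EV replicate 2, with 1738 counts beside 73 and 71 in the other NSC EV libraries and 13, 10 and 67 in astrocyte EVs. Its log2 fold change was -4.96 (SE 1.30, edgeR adjusted p = 0.0496) and -1.97 without that library.

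The LSU row with the most counts over the 6 libraries together, LSU-rRNA_Hsa_copy150 (chr5:109600946-109601227, plus strand, between genes), had 72132, 52326 and 23402 counts in astrocyte EVs and 201331, 158756 and 208520 in NSC EVs. The groups did not overlap, with astrocyte EV replicate 3 the lowest library, but the row did not pass the test (log2 fold change -1.85, SE 0.78, edgeR adjusted p = 0.160). Per count of the 18S row it had 0.213, 0.200 and 0.0495 in astrocyte EVs and 0.704, 0.439 and 0.621 in NSC EVs (exact permutation test, p = 0.1). It did not lead in astrocyte EVs, where LSU-rRNA_Hsa_copy68 and LSU-rRNA_Hsa_copy438 had 211% and 155% of its summed counts. In NSC EVs they had 48.9% and 61.5%. Its first place thus rests on its NSC EV counts. The next rows lay closer together: LSU-rRNA_Hsa_copy68 (chr3:5860319-5860822) had a log2 fold change of -0.22 (SE 0.47, edgeR adjusted p = 0.800). Those of LSU-rRNA_Hsa_copy438 and LSU-rRNA_Hsa_copy367 were -0.91 and -1.36 (SE 0.53 and 0.56, edgeR adjusted p = 0.289 and 0.149). The longest LSU row, LSU-rRNA_Hsa_copy40 (766 bases), was at -0.41 (SE 0.50, edgeR adjusted p = 0.627).

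Mitochondrial rRNA was represented by a single row of type rRNA. LSU-rRNA_Hsa_copy251 (chrM:2001-2177, plus strand) covers bases 908 to 1084 of the 1582-base gene mt-Rnr2, which encodes mitochondrial 16S rRNA. Its sequence is shown because it is the one member that is not nuclear.
LSU-rRNA_Hsa_copy251: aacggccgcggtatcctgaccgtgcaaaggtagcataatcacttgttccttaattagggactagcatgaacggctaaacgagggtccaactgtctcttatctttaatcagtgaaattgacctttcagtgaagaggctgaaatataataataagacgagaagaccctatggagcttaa
It had 6934, 3110 and 1988 counts in astrocyte EVs and 9332, 9302 and 8879 in NSC EVs. Raw counts of the groups did not overlap, but levels scaled by TMM did, and the row did not pass the test (log2 fold change -1.04, SE 0.74, edgeR adjusted p = 0.389). Without TMM it was called lower, at -2.03 (edgeR adjusted p = 0.0312), and its fold change was -2.32 without astrocyte EV replicate 1 and -0.54 without astrocyte EV replicate 3. Per count of the 18S row it had 0.0205, 0.0119 and 0.00421 in astrocyte EVs and 0.0326, 0.0257 and 0.0265 in NSC EVs, without overlap (exact permutation test, p = 0.1). On the scale of CPM per kilobase, the mean level in NSC EVs was 889 for this row, 3034 for the 18S row, 5280 for the top 5S row and 11611 for LSU-rRNA_Hsa_copy150. In astrocyte EVs the same means were 432, 2819, 35946 and 3223.

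The longest 5S row, 5S_copy965 (127 bases), had 2 counts in all and was not tested. It completes the rows named by kind.

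Short windows annotated as piRNA (38 windows) or miRNA (1 window) lie inside rRNA rows and are counted as separate rows. These 39 windows lie in 23 rRNA rows with at least 5000 counts, and 38 were tested, of which 1 was higher and 7 were lower in astrocyte EVs, beside backgrounds of 5.54% and 4.24%. Windows overlap each other and share reads. The higher window, piR_000691, covers bases 95 to 120 of 5S_copy720 and had 105211, 74144 and 86869 counts against 7338, 5321 and 16475 (log2 fold change 3.08, SE 0.72, edgeR adjusted p = 0.0367). In 5 of the 6 libraries the window had more counts than the whole 5S_copy720 row, at 91.0% to 263% of it, so the window is not a part of the row's count. Of the 24 windows in LSU rows 6 were lower, and of the 13 in SSU rows 1 was lower.

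Several gene rows of the table hold an rRNA row with most of their counts. Of the 130 rRNA rows with at least 60000 counts, 32 lie within a gene row or its antisense row, in 35 pairs, and in 27 pairs the rRNA row held over 80% of the counts of the gene row. LSU-rRNA_Hsa_copy438 (chr16:57391113-57391673) held 91.6% of the counts of Cmss1, in whose intron it lies. LSU-rRNA_Hsa_copy367, in an intron of Jarid2 on the other strand, held 98.0% of the counts of the antisense row of that gene, and 5S_copy208 held 99.8% of the counts of Tmem38b.

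RNAs that take part in rRNA maturation were read from the same fit. The list holds the small nucleolar RNAs U3, U8, U14, U22 and U17 (SNORA73) and the RNA of RNase MRP (Rmrp), which cut or fold the precursor. Of 34 matched rows, 21 were tested, 0 were higher and 1 was lower in astrocyte EVs, beside backgrounds of 5.54% higher and 4.24% lower over the whole table. That is close to the background, and their median log2 fold change was -0.05. The lower row was U3:RF00012.11, with 116, 93 and 480 counts against 615, 1032 and 1037 (log2 fold change -2.58, SE 0.42, edgeR adjusted p = 0.0168). The abundant U3:RF00012.5 had 4892, 3306 and 4609 against 2154, 2687 and 3651 and did not pass the test (log2 fold change 0.47, SE 0.50, edgeR adjusted p = 0.578). A list of rRNA transcripts held 17 rows of other types, which are not 17 separate rRNAs. Most are Rn4.5s copies with equal or near-equal counts, such as 144, 95 and 903 against 109, 52 and 65. Rn45s and SSU_rRNA_eukarya:RF01960.2 nearly or fully repeat the counts of SSU-rRNA_Hsa_copy44. Of the 17 rows 1 passed, the 5.8S row 5_8S_rRNA:RF00002.2, with 1989, 1513 and 6313 counts against 11668, 7383 and 7241 (log2 fold change -1.96, SE 0.41, edgeR adjusted p = 0.0287). The other 5.8S row, 5_8S_rRNA:RF00002.1, was at -0.69 (SE 0.40, edgeR adjusted p = 0.295).

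Markers of the source cells and of other cells were read from the same tables. Of the 9 astrocyte marker rows, Gfap and Aldoc were higher in astrocyte EVs, with 89, 107 and 451 counts of Gfap against 33, 51 and 31. The other 7 did not pass the test and went both ways. Slc1a3, Slc1a2, Aldh1l1 and Slc1a2:copy2 had log2 fold changes of -1.15, -0.797, -0.18 and -0.03. Those of Glul, Aqp4 and S100b were 0.56, 0.15 and 0.14. The summed level of the astrocyte markers overlapped between EV types. Of the 9 NSC marker rows 8 were tested and 0 passed, and of the 4 microglial rows 0 passed (edgeR). Slc1a2 stands more than once in the astrocyte list, as does Prom1 in the NSC list. The backgrounds over all tested rows were 5.54% called higher and 4.24% called lower. In lists this short, 0 calls is close to those backgrounds and carries little weight. All 3 red blood cell miRNAs were higher in astrocyte EVs, where their summed level was 97.4 to 229 CPM beside 3.29 to 8.53 CPM in NSC EVs. Of these, miR-451a had 77, 160 and 152 counts in astrocyte EVs and 0 in every NSC EV library. The summed level of the list and the 5S share were both higher in every astrocyte EV library than in every NSC EV library. Red blood cell RNA and EV type therefore cannot be told apart here. The part of the list in the 5S result was not tested. The libraries also differed in scaling, with TMM factors from 0.488 in astrocyte EV replicate 1 to 1.42 in NSC EV replicate 2.

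The number of calls depended on single libraries. Over all distinct rRNA rows, 43 were higher and 38 lower in astrocyte EVs of 443 tested, and without TMM 24 were higher and 91 lower. The whole table had 2290 higher and 1750 lower of 41308 tested rows, and 738 higher and 3217 lower without TMM. No rRNA row was called without astrocyte EV replicate 1, astrocyte EV replicate 2 or NSC EV replicate 3, where 199, 178 and 199 rows had an unadjusted p under 0.05 (edgeR) beside 210 with all 6 libraries. Over the whole table, 0, 0 and 18 rows were called in these 3 cases beside 4040 with all libraries, and 9885, 9729 and 10175 rows had an unadjusted p under 0.05. Median log2 fold changes kept their sign for each kind as each library was left out: from 0.25 to 1.04 for 5S, from -1.43 to -0.85 for SSU and from -1.25 to -0.66 for LSU.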

How the data were processed

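The authors counted small RNA reads per annotated row and deposited the raw counts, without normalization, for 6 libraries (3 per EV type). The submitters' processing notes name Bowtie, Bowtie2, cutadapt, FastQC, SAMtools, bedtools and DESeq and the build mm10. The sources used here do not say how reads with several matches were shared among rows, or how strand was used. The deposited DESeq tables, which hold group means, fold changes and p-values of the authors, were not used. All 6 count columns matched a library (0 unmatched), and 0 rows had a blank identifier. Table totals were 44620985 to 111851274 counts, so for the abundant rows the spread between libraries and not counting error sets the precision.

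After removal of 788 hairpin rows, which repeat mature miRNA reads, 61161 rows were kept. The whole table was fitted with edgeR 4.0.16 (R 4.3.3): TMM, filterByExpr, quasi-likelihood test with group as the only term, Benjamini-Hochberg adjustment and calls at an adjusted p under 0.05. Shares were compared by exact permutation (two-sided). DESeq2 1.42.0, other scalings and filters, libraries left out and a replicate block were alternatives, and 2 were added after seeing the data (the most abundant row of each kind, and 5S without the array). Sequences and genes are those of GENCODE vM21, and row positions were read as 1-based, since 5′ ends then met those of annotated 5S genes on both strands. The script was tested on simulated data. No 2 libraries agreed within sampling noise (smallest chi-square per degree of freedom 91.7).

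Rows were named by rule: up to 4 of largest share per kind, up to 5 of largest fold in each direction among called rows with no overlap and a mean count of at least 100, the mitochondrial row, and the longest of each kind. The members and lists were chosen with earlier results of these data known. Processing RNAs were matched by name, including Rfam names. Some rows and 5S sequences are not reported here.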

Additional observations from a re-analysis of the deposited data

How the results depend on the processing

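The 5S, SSU and LSU shares, of the table and of rRNA counts, kept their direction under every alternative run. The share of all rRNA rows (17.1% against 11.2%, a difference of 5.84 percentage points) reversed with identical rows taken once (-0.952) and with the most abundant row of each kind (-0.402), and stayed at 4.56 to 6.60 as each library was left out. Of rRNA rows, 43 were called higher and 38 lower. DESeq2 called 75 and 80, no TMM 24 and 91, the 2-fold threshold 1 and 6, and leaving out 1 library 0 to 41 and 0 to 28. As replicate numbers did not pair the libraries (correlations of -0.0480, -0.00391 and -0.118 between same-numbered libraries), the replicate block is an alternative only, with 10 and 14 calls over rRNA rows and 1245 over the table beside 4040. It left the differences of shares as they were (for all rRNA 5.84, exact sign-flip p = 0.25, the smallest that 3 pairs allow). DESeq2 called 7356 rows over the table, no TMM 3955 (738 higher and 3217 lower) and the 2-fold threshold 449. As each library was left out, the log2 fold change of SSU-rRNA_Hsa_copy44 ran from -0.59 to 0.14 (above 0 without astrocyte EV replicate 2 or 3) and that of SSU-rRNA_Hsa_copy21 from -0.59 to 0.10 (above 0 without astrocyte EV replicate 3 or NSC EV replicate 3). The row LSU-rRNA_Hsa_copy150 was called lower by DESeq2 (-1.85, adjusted p = 0.0349) and without TMM (-2.75, adjusted p = 0.00201), as was LSU-rRNA_Hsa_copy367 (adjusted p = 0.0455 and 0.0104). LSU-rRNA_Hsa_copy438 and LSU-rRNA_Hsa_copy251 were called lower without TMM only (adjusted p = 0.0343 and 0.0312). The cause of these changes was not tested. Depth did not limit the leading rows, whereas 337 of 780 distinct rows were too low to test.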
